A study of Mus musculus with 17 samples.

Results

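Epithelium-only H3.3 regions are stretches of the mouse genome where both lens epithelium libraries held an H3.3 island and neither lens fiber library did. They were chosen by the island calls themselves: overlapping islands of the 4 libraries (1 bp sufficed) were joined into merged regions, and a merged region was kept if it held an island of each epithelium replicate and none of either fiber replicate. Of 38396 merged regions, 286 met this rule (0.745%), whereas 11078 met the mirror rule for fibers (28.9%). Because presence in epithelium and absence from fibers chose these regions, both are descriptions here and neither was tested.

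The study profiled newborn CD1 mouse lenses that had been microdissected into epithelium and fibers. Chromatin of each compartment was precipitated with an antibody to histone H3.3, giving 2 P1 epithelium and 2 P1 fiber libraries with 150 lenses pooled per sample according to the labels; the protocol text dates the animals P0.5, and the study's methods give another number of lenses. All animals shared the CD1 background and no gene was altered or agent given, and a dissected compartment can carry some cells of its neighbour. A pooled input library and the bisulfite libraries of the series were not analysed here.

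Histone H3.3 is a variant of the core histone H3 that is laid down outside of DNA replication. The HIRA complex places it in transcribed genes, promoters and enhancers, and DAXX with ATRX places it in repeated DNA such as telomeric and pericentric chromatin. The lens epithelium is the sheet of cells that covers the front of the lens and holds its dividing cells, and these cells leave the cycle and elongate into fibers at the lens equator, where they fill with crystallins.

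The regions fell into a large set of mostly unique sequence and a smaller set in repeated DNA. To show the unique set, the 30 bases directly upstream of the annotated start are given for 6 protein-coding genes whose start such a region held, read 5′ to 3′ on the coding strand of GRCm38.p6 (RefSeq) with CG dinucleotides in capitals. They were picked after their values were seen, and lie at chr4:154140209-154140238 (Trp73, minus strand), chr2:119237332-119237361 (Spint1, plus), chr9:31131854-31131883 (St14, minus), chr3:96557927-96557956 (Txnip, plus), chr13:53286125-53286154 (Ror2, minus) and chr1:134037224-134037253 (Fmod, plus).
Trp73: CGccctgagcccCGccaaaggtCGCGgtcc
Spint1: atgccagtccCGcccCGCGctctgactcag
St14: gtgtgCGggCGcCGgtgctggctggctgga
Txnip: ggctatataagcCGtttcCGgcagcCGctt
Ror2: ggggaccctgcctcctgCGCGccCGccCGc
Fmod: agagactgcagaaataacttctggggcatc

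These stretches held 4 CG dinucleotides for Trp73 and for Ror2, 3 each for Spint1, St14 and Txnip, and 0 for Fmod. Over the 250 bases upstream of the start, the 24 of the 36 starts held that had a RefSeq promoter within 500 bp had a median of 8 CG dinucleotides (0 to 31), and 10 of them (41.7%) held 10 or more. Among all 32851 mouse promoters in the RefSeq table the median was 6 and 37.8% held 10 or more, so the starts held spanned CG-rich and CG-poor promoters much as promoters in general did.

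To show repeated DNA, 30 bases are given for 5 regions, on the plus strand of the same build. They come from the middle of the most often repeated 75-nt stretch outside masked repeats in each region. The number of exact genomic copies bears on every read count in such sequence. The densest region holds a tandem array, but 32.8% of its 75-nt stretches were repeated, so it falls in the mostly unique set. The other regions shown belong to the repeated set. The stretches lie at chr4:118547261-118547290 (the densest region), chr4:42377968-42377997, chr8:55345813-55345842, chr11:60591972-60592001 and chr7:59756825-59756854 (Snhg14).
Densest region: gagaagctgtaggtcagggggtagaggtgg
Chromosome 4 cluster: actgcagaagctggctgttttttagggtgg
Chromosome 8 array: cctgtgtggacttccattggctacaaggtt
Longest region, chromosome 11: accagcctctgctggtcaactgggatgcct
Snhg14: ggcacctagaattcatgcagcaattcccat

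The stretch of the densest region occurred 8 times in the genome, each time inside that region, as a local tandem array. The stretch of the chromosome 4 cluster occurred 25 times on that chromosome, of which 5 copies lay in epithelium-only regions. The stretch on chromosome 8 had 25 exact copies, 24 of them on chromosome 8 and 18 of them in epithelium-only regions. The chromosome 11 stretch occurred 12 times, with 6 copies in its own region, and the Snhg14 stretch occurred 57 times on chromosome 7, with 5 copies in epithelium-only regions. None of these 5 stretches held a CG dinucleotide.

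The 4 island lists differed in size, which bears on what a missing island means. Epithelium replicates 1 and 2 had 10389 and 14434 islands holding 1331369 and 1430373 reads, and fiber replicates 1 and 2 had 27059 and 35940 islands holding 5041885 and 5359085 reads. The total reads of each library are unknown, so no detection limit can be given, and a region without an island may still carry H3.3 below the caller's threshold. Markers were checked through islands over the gene or within 5 kb of it. Of 30 lens epithelium genes, 17 and 22 had an island in the epithelium libraries and 23 and 27 in the fiber libraries, and of 30 lens fiber genes, 16 and 20 had one in the epithelium libraries and 29 in each fiber library. The island lists therefore did not separate the compartments by their epithelial markers.

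The 286 regions were of moderate size and ordinary read density. Their median length was 4800 bp (800 to 66600 bp), and together they covered 1.55 Mb. Median read density, the reads of an island per kb of its length, was 28.05 in replicate 1 and 27.1 in replicate 2 (27.6 ± 0.640, SD, n = 2). These medians stood at the 45.9th percentile of all islands of replicate 1 and at the 39.8th percentile of those of replicate 2, so the regions were no denser than a median island of their library. They held 3.20% and 2.36% of all reads in islands of these libraries.

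Epithelium-only regions called in 1 replicate numbered 3435, against 286 called in both. Within the 286, which the rule required to hold an island of each replicate, the islands differed in extent. In 274 regions each replicate had 1 island. A median of 51.8% of a region's length was covered by both replicates, 244 regions (85.3%) shared at least 50% of the shorter cover, and in 4 the islands were identical. At the other end, 5 regions rested on 200 bp of shared sequence, the smallest overlap seen. The cover was longer in replicate 1 in 169 regions and in replicate 2 in 96.

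**Figure D1:**
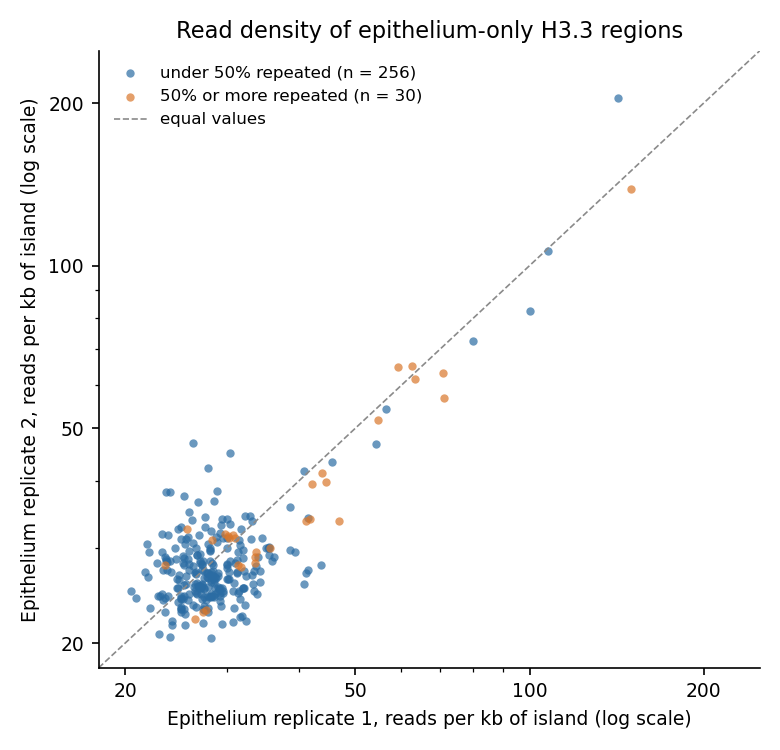
Reads per kb of island in epithelium replicate 1 (x axis) against replicate 2 (y axis), both on log scales, for the 286 epithelium-only regions, with regions of at least 50% repeated sequence in orange. Most points sit between 20 and 50 reads per kb in both replicates, and the few above 50 lie near the line of equal values.

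A minority of the regions held much repeated DNA. A 75-nt stretch, the read length of the libraries, was counted as repeated if it occurred more than once in the genome on either strand. Pooled over all regions of a class, repeated stretches made up 16.3% of the 286 regions. The pooled share was 6.51% in the 3435 epithelium-only regions called in 1 replicate. In the 3849 regions with islands in all 4 libraries it was 2.46%, and in fiber-only regions called in both replicates 1.19%. The median share per region was 0% in the 286, against 0%, 0.553% and 0.0942% in the other classes in the same order. In 30 regions (10.5%) at least 50% of the stretches were repeated, as were 5.07%, 1.38% and 0.289% of the other classes in the same order. With epithelium islands limited to those of at least their library's median reads per kb, 70 regions met the rule and 46.1% of their stretches were repeated, whereas dropping epithelium replicate 1 or 2 from the rule gave 2571 or 1577 regions with 8.88% or 8.06%. The study's methods name BWA aln and samse with default settings, which assign a read with several equal matches to a randomly chosen match. Whether such reads were filtered out before islands were called is not given in the sources used here, and their part in these values was not tested.

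The repeated regions were also the denser ones. Their median density was 33.6 reads per kb in replicate 1 and 31.8 in replicate 2, against 27.8 and 26.9 in the 256 regions with under 50% repeated sequence. Of the regions with at least 50 reads per kb, 7 of 13 in replicate 1 and 7 of 12 in replicate 2 were repeated by this measure.

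The densest region of all lay at chr4:118547001-118549400, in no annotated gene and 2957 bp from the start of Tmem125, with 142 reads per kb in replicate 1 and 204 in replicate 2. It holds the tandem array shown above, and 32.8% of its stretches were repeated. The region that ranked next, chr12:30578401-30579200 near Tmem18, reached 150 and 139 reads per kb over only 800 bp, and 50.96% of it was repeated. Both were near fiber islands, at 3400 and 4600 bp.

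The Dux locus on chromosome 10 came next in density. It ran from 58219001 to 58240600 and held the starts of Duxf3, AW822073 and Gm4981. Duxf3 belongs to the Dux family of double-homeobox transcription factors, which act at the onset of transcription in the early embryo. Density was 108 and 107 reads per kb in the epithelium replicates, 37.3% of the sequence was repeated, and the nearest fiber island was 80400 bp away. A region over Ighg2c, a constant-region gene of the immunoglobulin heavy chain, had 100 and 82.5 reads per kb with 0.533% repeated sequence, and lay 64400 bp from a fiber island. The region over the whole of 1600014C10Rik was 16600 bp long with 79.7 and 72.4 reads per kb and 0.448% repeated sequence, so high density was not limited to repeats.

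The other 5 of the 10 densest regions were repeated, 4 of them entirely and 1 to 78.0%. On chromosome 4 between 42025201 and 42590400, 5 regions consisted entirely of repeated stretches with a median of 4 to 17 genomic copies. Of these, 4 were among the 10 densest, at 59.2 to 71.2 reads per kb in replicate 1 and 56.8 to 65.2 in replicate 2, and the regions overlapped the gene models Gm2163, Gm13303 and Gm10593. On chromosome 8, 4 regions between 55111801 and 55520400 touched no annotated gene. The longest of these spanned 40600 bp with 54.8 and 51.8 reads per kb, and the densest reached 70.9 and 63.4 reads per kb with a median of 8 copies of each stretch.

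The longest region, 66600 bp at chr11:60586001-60652600, was 87.8% repeated and covered a run of gene models from Gm12613 to Gm26837, with 46.9 and 33.7 reads per kb. Islands of replicate 1 covered all 66600 bp and those of replicate 2 only 17800 bp, so the length rested on replicate 1. Together with the chromosome 8 array, the Dux locus, 1600014C10Rik and a 15200 bp region in Dnah8, which encodes an axonemal dynein heavy chain, this region made up the 5 longest. The Dnah8 region had the lowest density of these 5, with 27.8 and 26.95 reads per kb and 0.390% repeated sequence.

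Regions at Snhg14 and on chromosome X were repeated as well. Snhg14 is the long host transcript of the imprinted Prader-Willi domain, and it held 2 regions, with 35.6 and 30 reads per kb in the one and 33.6 and 29.5 in the other, which overlapped Snord116l3 and Snord116l4. Chromosome X had 3 epithelium-only regions, all of them with at least 70% repeated stretches, and chromosome Y had none. Only 91 of all 38396 merged regions were on chromosome X (0.237%), so islands there were rare in every class.

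On the autosomes the regions were spread unevenly. Chromosome 4 held 40 (13.99%), chromosome 11 held 31 (10.8%) and chromosome 2 held 29 (10.1%), where these chromosomes held 7.31%, 7.96% and 8.41% of all merged regions. Most stood alone: 214 had no other within 100 kb, and the remaining 72 formed 32 chains.

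Epithelium-only regions lay close to fiber H3.3. The median distance to the nearest fiber island was 6300 bp, with quartiles of 2400 and 17150 bp. A fiber island lay within 1 kb of 39 regions (13.6%), within 5 kb of 120 (42.0%) and within 10 kb of 170 (59.4%), and 272 (95.1%) had one within 100 kb. The 3435 regions of 1 epithelium replicate had a median of 6800 bp and 59.3% within 10 kb, so regions called in both replicates were about as near to fiber islands as regions called in 1.

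Repeated and unique regions differed in this distance. The 256 regions of mostly unique sequence had a median of 5600 bp and 64.1% within 10 kb, and the farthest of them was 109400 bp away. The 30 repeated regions had a median of 52400 bp and 20% within 10 kb. All of the 10 farthest regions were repeated, on chromosomes 5, 8, 12 and 14 at 316400 to 1397200 bp. The extreme case, chr12:23096001-23100000, had 28.2 and 31 reads per kb in the epithelium replicates and no annotated gene.

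**Figure D2:**
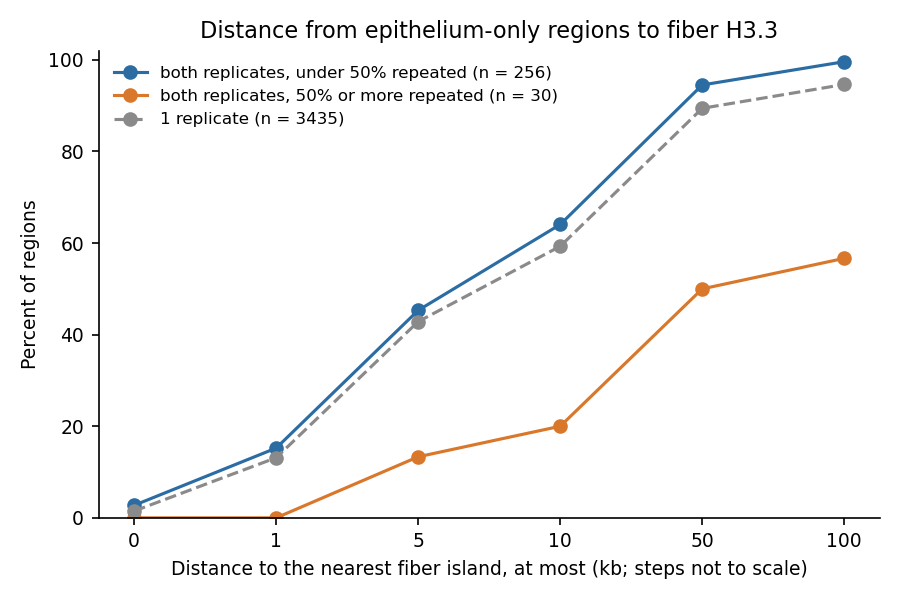
Percent of regions (y axis) whose nearest fiber island is at most the given number of kb away (x axis, steps not to scale), for epithelium-only regions of both replicates split by repeated sequence and for those of 1 replicate. At 10 kb the unique regions reach 64.1%, the repeated regions 20% and the regions of 1 replicate 59.3%.

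A fiber island within 10 kb on both sides was the least common arrangement. It was seen for 59 regions (20.6%), against 111 with one on 1 side and 116 (40.6%) with one on neither. The nearest island was of fiber replicate 2 for 159 regions and of replicate 1 for 118, and the median distances were 8600 bp to replicate 2 and 10400 bp to replicate 1, in the order of the number of islands in these libraries.

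The boundary of the rule was narrow. On the inside, 7 regions touched a fiber island with no base between, among them chr5:144204801-144212400 in Tecpr1 (32.3 and 23.5 reads per kb), chr17:29739601-29743800 near Ccdc167 (25.7 and 31.5) and chr9:97067401-97071400 in Gm26767 (29.2 and 25.3), and 2 more named by their rank lay near Parp11 and Lemd2. On the outside, 5 of the 4188 regions with islands of both epithelium replicates and of a fiber library shared only 200 bp with fiber islands. They included regions in Flt1, which encodes a VEGF receptor, at the start of Arhgef7 and at the C1qtnf5 and Mfrp locus, and the others were near Apbb1ip and on chromosome Y. In all, 37 regions shared at most 1000 bp. This count takes no account of length, so it is not a count of near misses. The chromosome Y region, for one, was 200 bp long and had islands of all 4 libraries.

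By gene feature, the regions were intermediate. An exon was touched by 173 regions (60.5%), 46 (16.1%) lay within introns only, and 67 (23.4%) had no base in any annotated gene. The start of a protein-coding gene lay in 34 regions (11.9%), a share that was 5.76% or 7.36% where epithelium replicate 1 or 2 was left out of the rule. The median distance to such a start was 20971 bp, and 92 regions (32.2%) were more than 50 kb from one.

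The same shares varied widely between the classes. Starts were held by 5.74% of epithelium-only regions of 1 replicate, 22.5% of fiber-only regions of both replicates and 52.3% of regions of all 4 libraries. No gene was touched by 30.1%, 14.7% and 6.13% of these classes. Regions of all 4 libraries were longer, at a median of 13200 bp, and longer regions meet more starts, so these shares are not corrected for length.

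**Figure D3:**
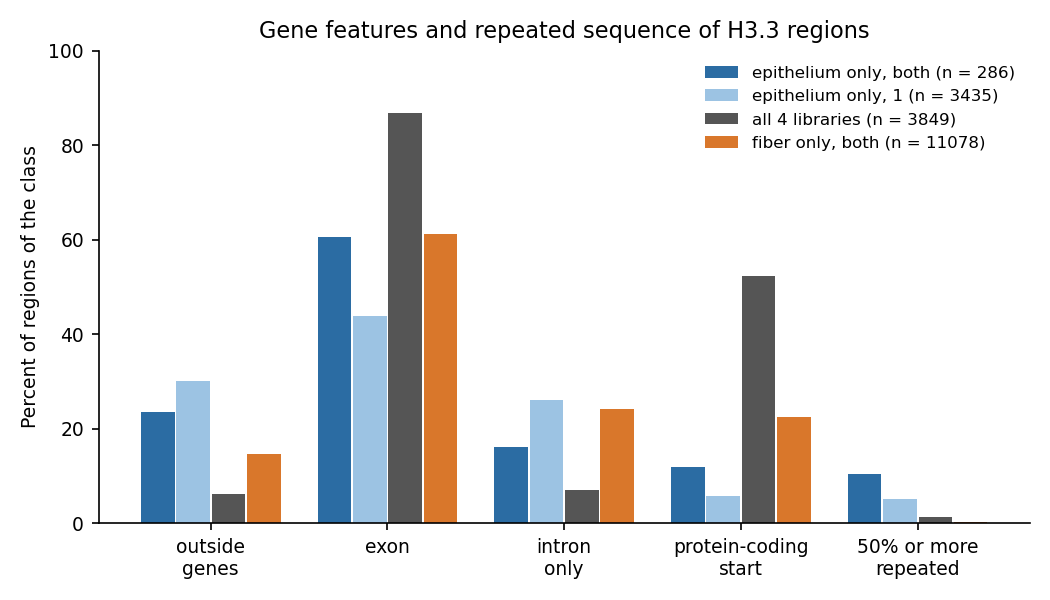
Percent of the regions of each class (y axis) that lie outside genes, touch an exon, lie in introns only, hold a protein-coding start or are at least 50% repeated. The epithelium-only regions of both replicates (dark blue) hold a start in 11.9%, against 52.3% of the regions of all 4 libraries, and are repeated in 10.5%, the highest of the 4 classes drawn.

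Base composition was GC-rich relative to fiber-only regions. The median GC content was 50.95%, against 49.5% in epithelium-only regions of 1 replicate, 50.8% in regions of all 4 libraries and 46.3% in fiber-only regions of both replicates. CG dinucleotides numbered 14.8 per kb, between 14.1 in fiber-only regions and 17.5 in regions of all 4 libraries. Exact matches on both strands to TGANTCA, the AP-1 consensus, numbered 0.263 per kb, against 0.314 in fiber-only regions and 0.273 in regions of all 4 libraries. Matches to the TEAD core GGAATG numbered 0.648 per kb, against 0.578 over all merged regions, and matches to the E-box CANNTG 6.05, against 5.93. These are counts of letters and not of bound sites.

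The regions overlapped 166 of 21951 protein-coding genes (0.756%). Most of these genes carried fiber H3.3 elsewhere: 135 (81.3%) had a fiber island in the gene body, and 96 (57.8%) had one within 1 kb of the start. The corresponding shares of all protein-coding genes were 59.3% and 48.9%. Of the 7984 protein-coding genes with an epithelium island in the body, 7619 (95.4%) had a fiber island in the body, so the share of the overlapped genes lay above that of all genes and below that of genes with epithelium islands. The overlapped genes were long, with a median of 38.0 kb against 17.4 kb for all protein-coding genes, and a longer gene has more room for an island of any kind.

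Of these genes, 22 were overlapped by 2 or more regions. To see the whole gene, the share of the gene and 5 kb on either side under islands was taken in each library. It was higher in both epithelium libraries than in both fiber libraries for 9 of the 22 genes, lower for 5, and overlapping between the compartments for 8. This share uses the calls that chose the regions and is a description.

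Ephb2, a receptor tyrosine kinase for ephrin-B ligands that guides cell sorting and contact, had the most regions, 4 within its 188 kb body. They began 51.6, 60.2, 91.2 and 136 kb downstream of the start. Densities in replicate 1 were 27.2, 23.0, 26.5 and 25.4 reads per kb in that order, and in replicate 2 they were 24.2, 24.4, 24.8 and 30.5. All 4 lay 1400 to 3800 bp from a fiber island. Islands covered 20.9% and 28.2% of the Ephb2 window in the epithelium replicates and 25.3% and 21.8% in the fiber replicates. The total cover thus overlapped between the compartments, and islands of both compartments also coincided at other places along the gene.

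Megf11, a transmembrane protein with EGF-like repeats, held 3 regions. Islands covered 14.2% and 19.1% of its window in epithelium and 11.4% and 8.45% in fibers. Gm20388 also counted 3 regions, but this gene model spans 4435 kb and many other genes, and Gm2163 owed its 3 to the repeated cluster on chromosome 4.

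Among the genes with 2 regions, Nfix encodes a nuclear factor I transcription factor. Islands covered 29.5% and 33.7% of its window in epithelium and 20.3% and 27.3% in fibers. Kif21b, a kinesin motor, had 23.7% and 37.1% in epithelium and 16.6% and 15.2% in fibers. In both of these genes the epithelium values stood above the fiber values. Col5a1, a fibrillar collagen chain, had 25.4% and 17.4% in epithelium and 29.2% and 16.8% in fibers, where the compartments overlapped. Pcnx2 and Bcas3 were covered more in both fiber libraries than in either epithelium library, at 16.3% and 16.8% against 11.7% and 6.76% for Pcnx2, and 7.26% and 10.9% against 4.53% and 4.22% for Bcas3. Further genes with 2 regions were Adcy6, Cfap77, Dnah8, Grik3, Hunk, Kif26a, Nrg2, Pef1, Rax, Slc38a8, Tns1 and Tulp4, and the regions of Tulp4 were 68.5% and 86.2% repeated.

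The starts of 36 protein-coding genes lay in epithelium-only regions. Of these starts, 33 were in regions of mostly unique sequence and 3, of Gm2163, Gm21680 and Gm3468, in repeated ones. A start was counted where the merged region held it, so the island of a single replicate could hold it alone. Densities given for a start are those of the region's islands. A fiber island lay elsewhere in the body of 16 of the genes. With 5 kb added on either side, 12 of the 36 genes had no fiber island at all, and 23 had more of the window under islands in both epithelium libraries than in both fiber libraries. Of all protein-coding genes, 54.5% had an island of fiber replicate 1 in such a window and 60.7% one of fiber replicate 2. The share of all genes with an island of neither was not counted, so 12 of 36 cannot be called more than the background. Cover was not compared over all genes. The rule had already kept fiber islands away from these starts, so the counts for the 36 genes are descriptions.

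Rax, a homeobox gene that specifies the eye field and the retina, had 2 regions. The region at its start had 41.4 reads per kb in replicate 1 and 27.4 in replicate 2 and lay 30400 bp from a fiber island. Only the replicate 2 island spanned the start, and the replicate 1 island began 0.187 kb downstream. The region over the end of the gene had 24.8 and 26.7. Islands covered 28.8% and 39.0% of the Rax window in epithelium, and no fiber island was called there. Another region lay in the neighbouring Cplx4.

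The starts of St14 and Spint1 both lay in epithelium-only regions. St14 encodes matriptase, a membrane serine protease of epithelia, and Spint1 encodes HAI-1, a Kunitz-type inhibitor of matriptase. The region at the St14 start had 23.9 and 38.1 reads per kb in the epithelium replicates and was 11000 bp from a fiber island. Its replicate 2 island lay upstream of the gene body, so only the replicate 1 island held the start itself. Islands covered 8.39% and 3.05% of the St14 window in epithelium and 0 and 4.58% in fibers. The Spint1 start, named after its values were seen, had 27.1 and 25.6 reads per kb and was 13200 bp from a fiber island, with 17.1% and 14.4% of its window covered in epithelium and 0.573% and 5.08% in fibers. For Spint1 the compartments did not overlap, and for St14 they did.

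Trp73, Txnip and Col9a2 had no fiber island over the gene or within 5 kb. Trp73, also named after its values were seen, encodes p73, a member of the p53 family, and its start had 27.1 and 28.0 reads per kb, 8400 bp from a fiber island. Txnip encodes the thioredoxin-interacting protein, which restrains glucose uptake, and its start had 32.1 and 27.1 reads per kb, 18400 bp from a fiber island. Col9a2, a chain of type IX collagen, had 30 and 27.9 reads per kb at its start and 14.7% of its window covered in each epithelium library. Fam43b, Def8, Gm3404, Gm21680, Gm3468, Rax and the 3 genes of the Dux locus were the remaining genes without a fiber island in the window.

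**Figure D4:**
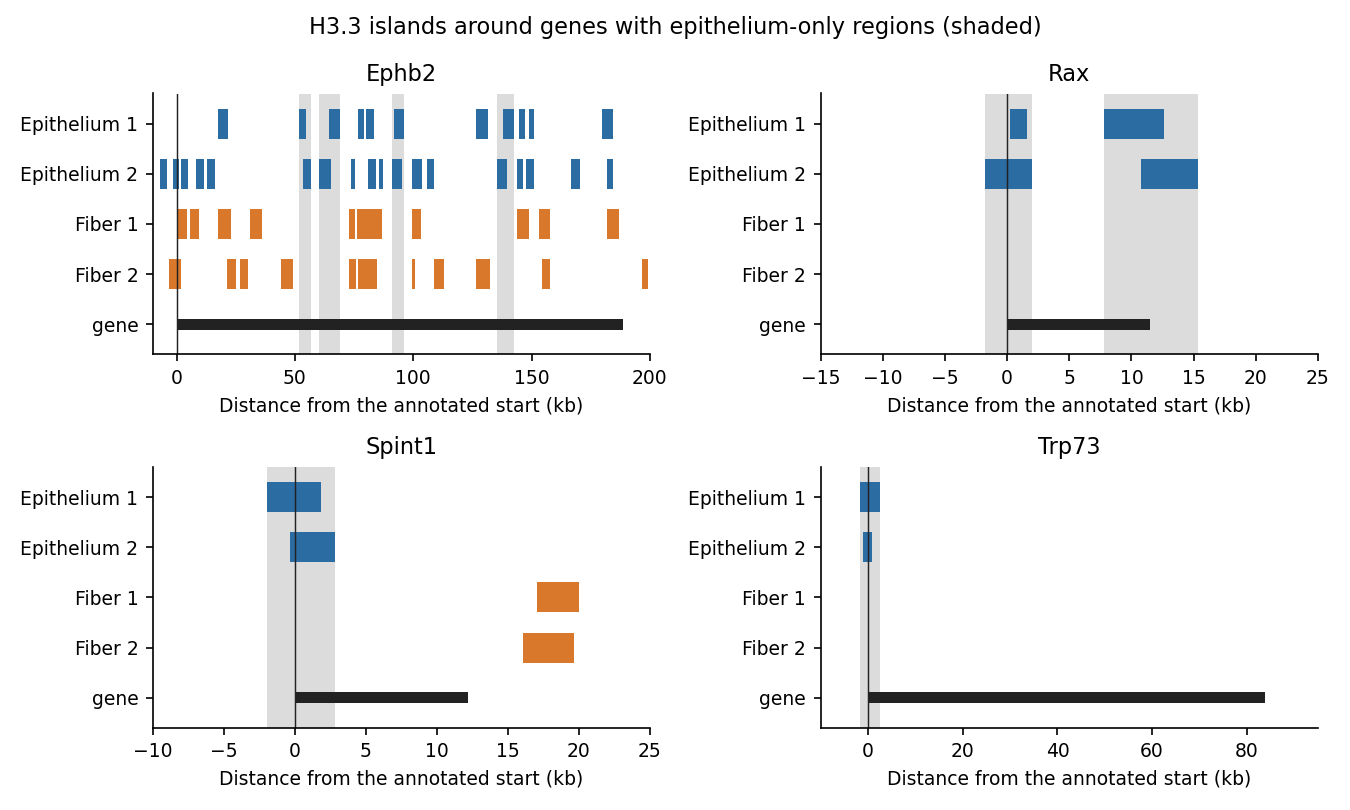
H3.3 islands of the 4 libraries (blue epithelium, orange fiber) and the gene (black) against the distance in kb from the annotated start of Ephb2, Rax, Spint1 and Trp73, with epithelium-only regions shaded. The 4 shaded stretches of Ephb2 lie between fiber islands, whereas no fiber island falls within the Rax or Trp73 panels. The fiber island nearest to the Trp73 region, 8400 bp away, lies just beyond the edge of that panel.

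Further starts were those of Ror2, Acvrl1 and Aldh1a3. Ror2, a Wnt5a receptor, had 25 and 32.9 reads per kb at its start, and fiber replicate 2 alone had an island in its body. Acvrl1, which encodes the BMP9 receptor ALK1, had 28.8 and 30.8 reads per kb and was 800 bp from a fiber island. Its window was covered more in fibers, at 61.7% and 50.7%, than in epithelium, at 15.7% and 38.3%. Aldh1a3, a retinoic acid-synthesising enzyme of the developing eye, had 30.7 and 25 reads per kb, and its window was 13.7% and 18.01% covered in epithelium and 22.7% and 21.7% in fibers. A region at a start therefore went with more fiber cover elsewhere in the gene for Acvrl1 and Aldh1a3.

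The densest starts outside the Dux locus, 1600014C10Rik, Gm2163 and Rax were those of Slc25a45, a mitochondrial carrier, with 30.4 and 45 reads per kb, of Gm3404, with 32.9 and 34.4, and of Pef1, a calcium-binding protein, with 35.5 and 29.1. The starts of C1ql4, Gm21680, Tcea3, Fmod and A4galt had 25.6 to 30.8 reads per kb in replicate 1 and 25.8 to 32.5 in replicate 2. Fmod encodes fibromodulin, a small proteoglycan that binds collagen.

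Lists of lens genes held few of the regions. Over all protein-coding genes, 218 (0.993%) had an epithelium-only region over the body or within 5 kb. Of 30 lens epithelium genes 1 did, Cdh1. Rax did among the eye transcription factors and the retina genes, and Cdh1 was also the 1 among 31 adhesion and extracellular matrix genes. None was found among 30 lens fiber genes, 16 crystallins, 39 genes of Wnt signalling and planar polarity, 36 of FGF, BMP, TGF-beta and Notch signalling, 30 of the cell cycle, 14 H3.3 genes and chaperones, 15 endothelial genes or 10 pigment cell genes. No list was tested against the background share. Among 13 retina genes, 4 had an island in each library, and among 10 pigment cell genes 0 and 1 had one in the epithelium libraries and 2 and 5 in the fiber libraries. Among 15 endothelial genes these counts were 5 and 6 in epithelium and 9 and 8 in fibers.

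Cdh1 encodes E-cadherin, the adhesion molecule that marks lens epithelium. Its region, chr8:106661801-106666800, lay 58450 bp downstream of the start with 20.5 and 25 reads per kb, 2200 bp from a fiber island. Islands covered 14.8% and 23.4% of the Cdh1 window in epithelium and 42.7% and 53.1% in fibers, and an island lay within 1 kb of the start in both fiber libraries and in neither epithelium library.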

How the data were processed

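H3.3 ChIP-seq islands of 4 libraries from newborn mouse lens were used. Per the labels and methods, the authors mapped 75-nt single-end reads to mm10 with BWA and called islands per library with SICER, and they deposited start, end and a count of reads for each island. Read counts are raw. The other deposited columns are positions on a 200 bp grid. Removal of duplicates and use of the pooled input are not given in the sources used here. Reads in islands ranged from 1331369 to 5359085 per library, and library totals are unknown. The files hold no columns of comparisons.

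Islands were read with the end base included and merged where they shared at least 1 bp (Python 3.11.15, numpy 2.4.6), and bedtools 2.31.1 gave the same 38396 regions. Distances count the bases between, and islands that touch are 0 bp apart. Genes, exons and starts (the 5′ end of the gene) came from GENCODE vM21 on GRCm38, and sequences from RefSeq GRCm38.p6. All 75-nt stretches of the genome were counted on both strands. The merging and distance steps were tested on simulated islands. The named regions were the 10 densest, 10 farthest from and 5 nearest to a fiber island, the 5 longest, and the 5 outside the rule that shared fewest bases with one. The named genes were those these regions overlapped or lay nearest to, up to 20 genes whose start lay in a region in order of density, those with 2 or more regions, and those of the gene lists within 5 kb. Some genes that this rule names are not reported here. The regions and lists were chosen with earlier results of these data known. No test was run, since the calls chose the regions. Replicates are separate pools of lenses. Alternatives changed the merging, the density of islands used, the libraries, the distance from fiber islands and the repeated sequence.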

Additional observations from a re-analysis of the deposited data

How the results depend on the processing

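The results describe called islands, and alternatives were compared with the spread between the epithelium replicates. No paired analysis was possible because the results come from no test. Of 94 values under the alternatives, 22 counted as unchanged and 72 as moved. The limit was the SD between the epithelium replicates, except for the number of regions, which was judged by a fixed fold change.

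Leaving out a library changes the rule itself, since fewer calls are then required. There were 2571 regions without epithelium replicate 1, 1577 without epithelium replicate 2, 443 without fiber replicate 1 and 546 without fiber replicate 2. Over these, the median distance to a fiber island ranged from 6000 to 7400 bp, the share within 10 kb from 57.1% to 62.5%, the share outside genes from 21.8% to 29.8%, the share with a start from 5.76% to 15.6%, the median length from 2800 to 4800 bp, reads per kb from 26.4 to 27.7, GC from 49.7% to 51.4% and repeated stretches from 8.06% to 14.2%. The share with a start was 5.76% without epithelium replicate 1 and 7.36% without epithelium replicate 2, and repeated stretches fell to 8.88%, 8.06% and 10.8% without epithelium replicate 1, epithelium replicate 2 and fiber replicate 2.

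Merging islands within 1 kb gave a median distance of 9200 bp, 53.6% within 10 kb, 24.6% outside genes, 11.3% with a start, GC of 50.5% and 17.6% repeated. Requiring the replicates to share at least 50% of the shorter cover gave 57.8%, 25.4% and 12.3% for the shares within 10 kb, outside genes and with a start, and 19.3% repeated. With islands of at least the median reads per kb in all libraries, the distance was 9300 bp, 52.2% were within 10 kb, 20.4% outside genes and 17.8% held a start, the length was 4200 bp, density 30.96, GC 52.1% and repeated share 20.2%. With that limit in the epithelium libraries only, 70 regions remained, at 10300 bp, 47.1%, 30%, 11.4%, 4000 bp, 33.0 reads per kb, 50.2% and 46.1% in the same order. Of regions at least 5 kb from a fiber island there were 172, at 13500 bp by construction, with 32.6% within 10 kb, 25.6% outside genes, GC of 50.6% and 24.4% repeated. Between midpoints the distance was 11450 bp. The share outside genes was 39.5% for protein-coding genes only and 32.5% by midpoint, and 15.03% had a start within 1 kb.

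Chosen after the data were seen, the 256 regions under 50% repeated gave 5600 bp, 64.1% within 10 kb, 21.1% outside genes, GC of 51.2% and 3.02% repeated. The cause of these changes was not tested.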
